A study of Homo sapiens with 8 samples.

Results

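The 1426 regions described here are islands of H3K27me3 that were found in PC9 cells treated with GSK126 and not in the DMSO control of the same replicate. PC9 cells are an established human line derived from a lung adenocarcinoma. The compound GSK126 blocks EZH2, which places the mark. An island is a region in which the SICER algorithm joined windows of 200 bp that hold more sequencing tags than a random background gives. The regions were chosen by their presence in the list of GSK126 replicate 1 and by the absence of any overlap of 1 bp or more with an island of DMSO replicate 1, and they make up 6.45% of the 22124 islands of that GSK126 list. Over 5 days the cells were given either the solvent DMSO or GSK126 at 1 μM, and 2 H3K27me3 libraries and 2 H3K4me3 libraries were sequenced for each treatment. The labels give no replicate numbers, so libraries were numbered in the order in which they were deposited. They do not say whether the 2 came from separate cultures, but the paper describes its PC9 replicates as biological. Both libraries of a replicate had the same number of human tags in the lists used to choose the regions, called here the standard normalization. H3K27me3 lists called after correction with the tags of added Drosophila melanogaster chromatin are called the spike-in lists, and in these the DMSO libraries kept all of their tags.

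H3K27me3 is deposited by Polycomb repressive complex 2, in which EZH2 or the related EZH1 is the catalytic subunit, and it marks silent developmental genes and broad intergenic domains. Inhibitors of EZH2 block the transfer of methyl groups, and the mark is then lost as histones are replaced and as cells divide. H3K4me3 lies at the starts of active genes, and regions that carry both marks are known as bivalent.

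The 3 windows printed here show the sequence at which an island appeared with GSK126 in both replicates. They are the 300 bases around the midpoint of 3 of the longest such regions, ranked by the length of the replicate 2 island, with regions on a chromosome whose sequence is not printed passed over. They were read from the GRCh37 (hg19) reference on the plus strand, and capitals mark CpG dinucleotides.
PCYT1B intron, chrX:24598451-24598750: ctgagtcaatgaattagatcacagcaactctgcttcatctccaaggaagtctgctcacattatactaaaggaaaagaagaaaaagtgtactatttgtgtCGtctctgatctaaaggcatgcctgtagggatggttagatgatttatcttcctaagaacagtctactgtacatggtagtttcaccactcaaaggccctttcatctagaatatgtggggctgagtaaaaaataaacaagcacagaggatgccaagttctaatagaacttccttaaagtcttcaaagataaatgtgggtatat
DGKI intron, chr7:137296051-137296350: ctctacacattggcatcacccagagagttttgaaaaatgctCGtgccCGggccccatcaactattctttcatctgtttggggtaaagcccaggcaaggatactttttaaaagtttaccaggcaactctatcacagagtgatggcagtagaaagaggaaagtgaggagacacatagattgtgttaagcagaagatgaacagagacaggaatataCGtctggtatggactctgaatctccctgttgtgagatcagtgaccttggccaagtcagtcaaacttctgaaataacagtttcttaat
FGF14 intron, chr13:102525851-102526150: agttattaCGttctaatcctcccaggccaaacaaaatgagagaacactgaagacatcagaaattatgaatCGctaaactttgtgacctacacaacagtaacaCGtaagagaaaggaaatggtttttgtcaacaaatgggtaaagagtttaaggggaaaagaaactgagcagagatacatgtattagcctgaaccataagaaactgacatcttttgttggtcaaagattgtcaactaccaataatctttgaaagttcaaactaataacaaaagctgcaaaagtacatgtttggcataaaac
The windows held 1, 3 and 3 CpGs and 38%, 43% and 35% G+C in this order. Over the genome as a whole there were 9.85 CpGs per kb.

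In the PCYT1B intron, which belongs to an enzyme gene of phosphatidylcholine synthesis, the island of GSK126 replicate 1 was 3.60 kb long with a score of 80.6, and the overlapping island of replicate 2 was 9.80 kb long with a score of 192. The DMSO lists of the standard normalization held no island there, but 83.3% of the region was covered when DMSO replicate 1 was called on all of its tags. In the intron of DGKI, a diacylglycerol kinase gene, the islands measured 10 kb and 9 kb with scores of 142 and 179. The all-tags list of DMSO replicate 1 covered 48% of that region and the all-tags list of DMSO replicate 2 covered 32%. The FGF14 intron region, in a gene of the fibroblast growth factor family, scored 66.2 and 133. It was free of islands in the all-tags list of DMSO replicate 1 and covered by 50% in that of replicate 2. All of these 3 regions therefore met the rule in both replicates, and each had a DMSO island over part of its length in at least 1 of the deeper lists.

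**Figure D1:**
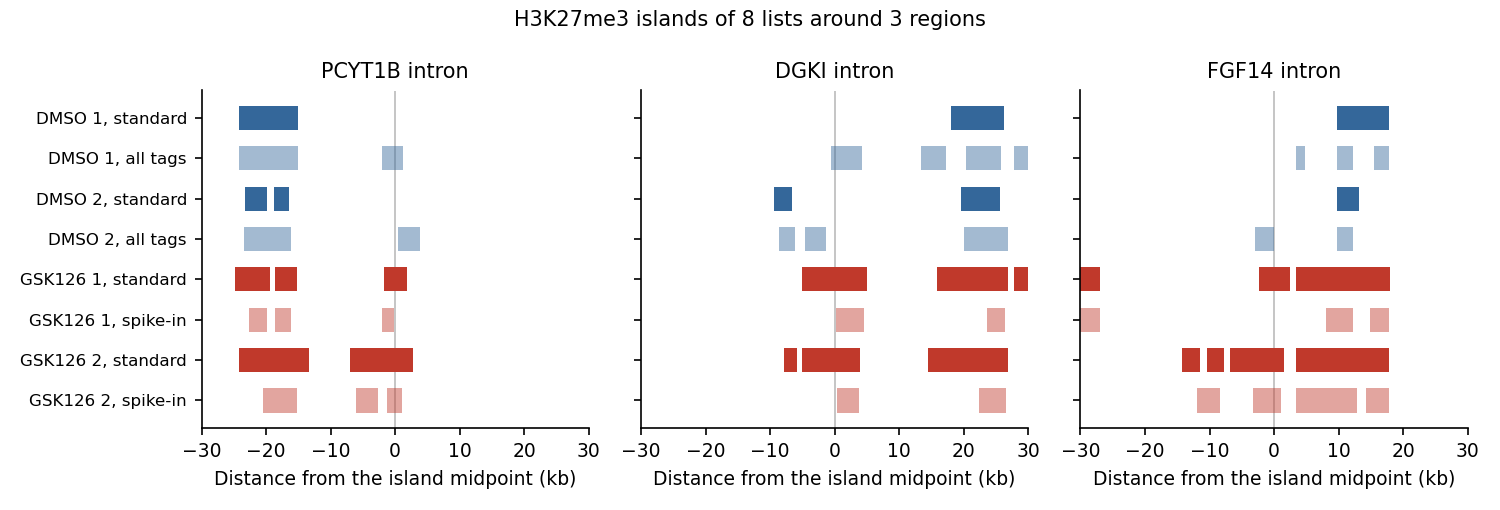
Islands of the 8 H3K27me3 lists within 30 kb of the midpoint of 3 regions that were GSK126-only in both replicates (x axis, distance in kb from the midpoint of the GSK126 replicate 1 island; rows, lists; blue, DMSO; red, GSK126; pale bars, all-tags or spike-in lists). At the midpoint, both standard DMSO rows are empty and both standard GSK126 rows hold an island, whereas all-tags DMSO islands reach into each of the 3 regions.

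The tag density of each list could be read from the island scores, since a score is the sum over windows of the negative natural log of a Poisson probability. It was 1.36 tags per window of 200 bp for both libraries of replicate 1 and 1.55 for both libraries of replicate 2. The all-tags DMSO lists had 1.22 and 1.5 times the density of the standard lists. Scores depend on depth, and were not compared between lists. H3K4me3 islands were present at the starts of 6 and 5 of 7 epithelial marker genes in DMSO replicates 1 and 2, and at 1 and 0 of 7 B-lymphoid marker genes. No test was run, because with 2 replicates the smallest p of an exact sign-flip test is 0.5. Differences are set against the values of both replicates, and intervals are 95% Wilson intervals that cover counting error only.

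Of the 1426 regions, 286 (20.1%; 18.1% to 22.2%) overlapped an island that was also GSK126-only in replicate 2. Over all islands of GSK126 replicate 1 this share was 2.87%. In replicate 2 the rule itself picked 1251 of 22624 islands, or 5.53%, and 291 of those (23.3%; 21.0% to 25.7%) overlapped a GSK126-only island of replicate 1. The overlap between replicates was thus higher than for the list as a whole, and it covered about 1 in 5 regions. Among the 286, there were 7 that also touched a DMSO island of replicate 2 elsewhere along their length.

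Counted over all 1426 regions, replicate 2 held a GSK126 island without a DMSO island at 298 (20.9%). An island of both treatments was present at 370 regions (25.9%), and a DMSO island without a GSK126 island at 406 regions (28.5%), which is the opposite of replicate 1. Neither list had an island at 352 regions (24.7%). At the other 20698 islands of GSK126 replicate 1, the shares were 1.17% with GSK126 alone, 82.4% with both, 14.6% with DMSO alone and 1.84% with neither. Starting from the 1251 GSK126-only islands of replicate 2, replicate 1 held a GSK126 island alone at 342 (27.3%) and a DMSO island alone at 120 (9.59%). The opposite pattern was thus more frequent than the same pattern in 1 direction of the comparison and less frequent in the other. DMSO-only islands were frequent in replicate 2, where they made up 38.3% of 33341 DMSO islands, compared to 22.1% of 26380 in replicate 1.

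Counted list by list, 668 regions (46.8%; 44.3% to 49.4%) overlapped an island of GSK126 replicate 2, and 776 (54.4%; 51.8% to 57.0%) overlapped an island of DMSO replicate 2. A DMSO island of the replicate that the rule had not used was therefore found at more regions than a GSK126 island was. The other islands of GSK126 replicate 1 had the same order, with 83.6% and 97.0%. The list of DMSO replicate 2 was also the longer one, with 33341 islands compared to 22624. For replicate 2, the order was reversed: of its 1251 GSK126-only islands, 51.1% overlapped a GSK126 island of replicate 1 and 33.3% a DMSO island of replicate 1. For the other islands of GSK126 replicate 2 these shares were 94.7% and 96.4%. The same rule applied between libraries of the same treatment picked 18.8% of the islands of GSK126 replicate 1 as absent from GSK126 replicate 2, and 7.67% in the other direction. Between the DMSO libraries the shares were 9.50% and 17%. Each of these shares exceeded the 6.45% and 5.53% that were GSK126-only against DMSO within a replicate. The 2 kinds of comparison are unlike, however. Lists of 1 replicate had equal tag densities, whereas replicates 1 and 2 differed in density (1.36 and 1.55 tags per window) and in lowest score (56.7 and 38.2).

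**Figure D2:**
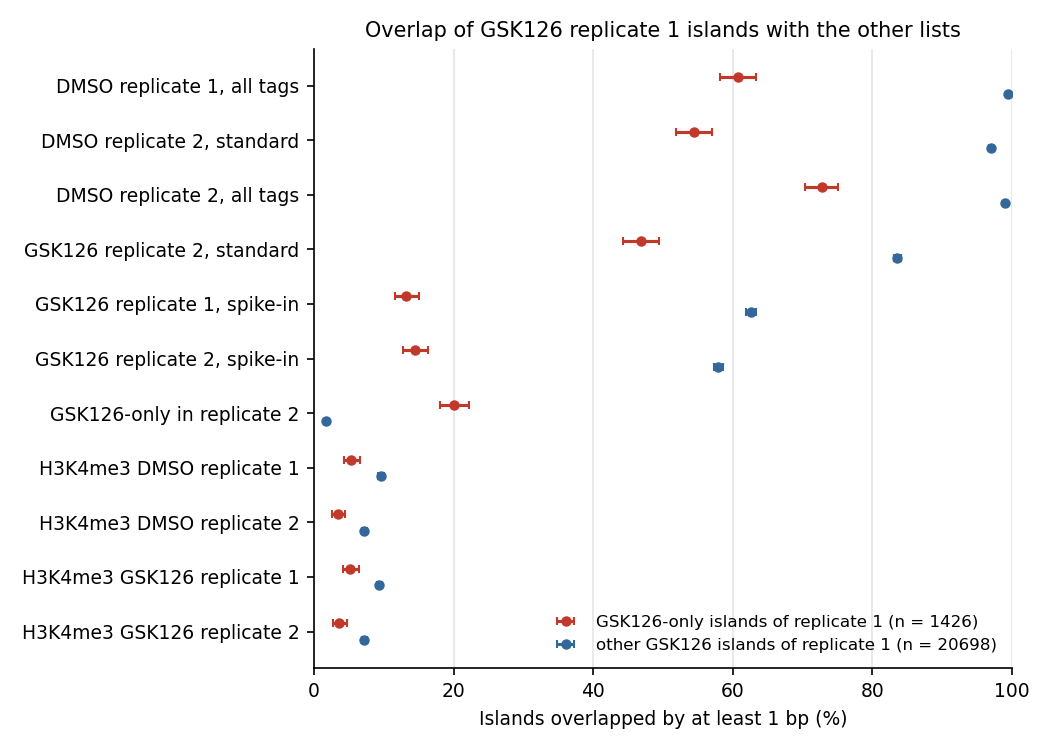
Share of GSK126 replicate 1 islands overlapped by an island of each other list (x axis, %; points, GSK126-only islands in red and other GSK126 islands in blue; bars, 95% Wilson intervals, counting error only). The GSK126-only islands lie below the other islands in each H3K27me3 and H3K4me3 list drawn, from 72.8% in the all-tags DMSO replicate 2 list to 3.37% in H3K4me3 DMSO replicate 2, and above them, among the rows drawn, for GSK126-only islands of replicate 2 (20.1% against 1.68%).

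The regions were short and had scores close to the lowest of the list. Their median length was 4600 bp (quartiles 3400 bp and 5950 bp, longest 13200 bp), compared to 7300 bp for the other islands of GSK126 replicate 1. Their median score was 68.8, compared to 170 for the other islands, and the lowest score of the list was 56.7. A score under 2 times the lowest was found for 1333 regions (93.5%), and for 34.2% of the other islands. Islands found only with DMSO were alike in this respect, with 90.1% under 2 times the lowest score of their list in replicate 1 and 73.0% in replicate 2, and median lengths of 5000 bp and 3400 bp. Counted over the list, 15.8% of the 8415 islands under that score were GSK126-only and 0.678% of the 13709 islands at or above it. In replicate 2 the shares were 13.6% and 1.78%. GSK126-only islands were thus found mainly among the weakest islands in both replicates. Together, the regions covered 6.80 Mb, whereas the other islands of the list covered 234 Mb.

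To set the regions beside islands of like score, the islands of GSK126 replicate 1 were split at the quartiles of the regions' scores. In the lowest quartile, 35.3% of 357 regions and 39.0% of 882 other islands overlapped an island of GSK126 replicate 2. In the second quartile the shares were 35.4% (30.6% to 40.5%) and 43.3% (40.4% to 46.2%), in the third they were 47.5% and 52.2%, and in the highest, which has no upper bound for the other islands, they were 69.2% and 92.2%. The share was lower for the regions in every quartile. The intervals overlapped in the lowest and the third quartile and barely touched in the second. The overlap with DMSO replicate 2 differed more. It was 48.2%, 54.2%, 50.0% and 65.3% for the regions from the lowest to the highest quartile, and 87.5%, 87.7%, 91.5% and 98.7% for the other islands. The overlap with GSK126-only islands of replicate 2 was 15.7%, 16.3%, 23.6% and 24.6% for the regions, and between 1.40% and 3.05% for the other islands. The lower presence in DMSO replicate 2 was thus seen at every score level. The 2 sets were split by DMSO replicate 1, however, so any likeness between the 2 DMSO libraries gives such a gap. The overlap with GSK126-only islands of replicate 2 depends on the DMSO libraries in the same way. Neither difference is therefore independent of the rule.

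**Figure D3:**
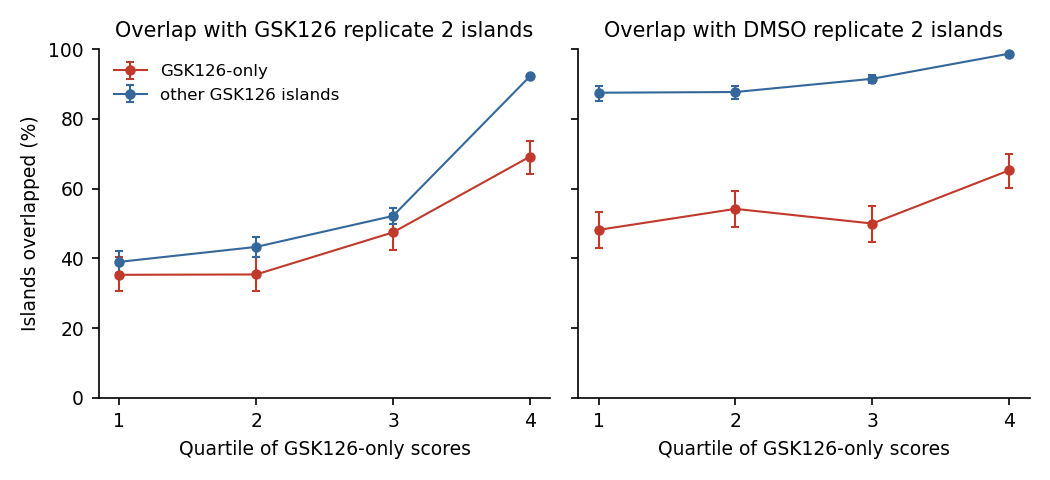
Share of islands overlapped by islands of GSK126 replicate 2 (left) and DMSO replicate 2 (right) against the quartile of the scores of GSK126-only islands (red, GSK126-only; blue, other GSK126 islands in the same score range; bars, 95% Wilson intervals). With GSK126 the regions lie below the other islands, by least in the lowest quartile (35.3% and 39.0%) and more in the second (35.4% and 43.3%), and with DMSO they are farther apart in every quartile (48.2% and 87.5% in the lowest).

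Calling the same DMSO library on all of its tags gave an island at most of the regions. The all-tags list of DMSO replicate 1 is not independent of the rule, because it comes from the library that the rule used. An island of that list overlapped 867 regions (60.8%; 58.2% to 63.3%), which left 559. These islands were weak themselves, with a median score of 1.30 times the lowest of their list, compared to 2.56 times over the whole list. The all-tags list of DMSO replicate 2 overlapped 1038 regions (72.8%). In total, 240 regions (16.8%) had no island in any of the 4 DMSO lists, and 109 of them were also GSK126-only in replicate 2.

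The spike-in lists of GSK126 had been called on fewer tags, with a density of 0.382 and 0.455 per window. The all-tags DMSO lists had 1.65 and 2.33. The paper reports a global decrease of H3K27me3 with GSK126 that normalization to equal tag numbers did not show. A GSK126-only island of the standard lists is therefore relative to equal tag numbers and need not be an absolute gain of the mark. They held an island at 189 regions (13.3%; 11.6% to 15.1%) in replicate 1 and at 206 (14.4%; 12.7% to 16.4%) in replicate 2. For the other islands the shares were 62.6% and 57.9%, but for other islands with a score under 2 times the lowest they were 18.2% and 14.2%. There were 59 regions with a spike-in GSK126 island and no all-tags DMSO island in replicate 1. Only 7 regions were GSK126-only in both replicates, lacked an island in all 4 DMSO lists and had one in both spike-in GSK126 lists.

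At the limit of the rule, 8 regions directly abutted a DMSO island, with scores from 58.8 to 130, the first of them at chr1:7093801-7098600. On the other side, 8 islands overlapped a DMSO island by a single window of 200 bp, with scores from 62.4 to 114, the first of them at chr2:96343601-96347000. The scores on both sides covered a similar range.

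Many of the regions lay near DMSO islands, which by the rule they could not overlap. The median distance from the edge of a region to the nearest island of DMSO replicate 1 was 10.2 kb (quartiles 2.85 kb and 39.6 kb), and 711 regions (49.9%) were within 10 kb. Measured from the midpoint, 44.1% were within 10 kb and 84.6% within 100 kb. Of the 200 bp windows of the genome outside DMSO islands, 9.87% were within 10 kb and 35.5% within 100 kb. Islands found only with DMSO were placed in a similar way relative to GSK126 islands, with 38.6% of midpoints within 10 kb and 86.1% within 100 kb. In replicate 2, the midpoint shares of GSK126-only islands were 47.5% and 84.0%. Nearness to islands of the other treatment was therefore common to both kinds of island and both replicates.

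A DMSO island lay within 10 kb on both sides of 231 regions (16.2%), which places these in gaps between islands of the control. The nearest DMSO island had a median length of 5.80 kb. It was 40 kb or longer for 12 regions (0.842%), and 762 of the 26380 islands of DMSO replicate 1 (2.89%) had this length. For the 711 regions within 10 kb of a DMSO island, that island overlapped no GSK126 island in 143 cases (20.1%; 17.3% to 23.2%), compared to 22.1% of all DMSO islands. The interval of the neighbouring islands thus included the share of all DMSO islands. The 286 regions that were GSK126-only in both replicates lay farther away, at a median of 20.9 kb, with 36.7% within 10 kb.

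**Figure D4:**
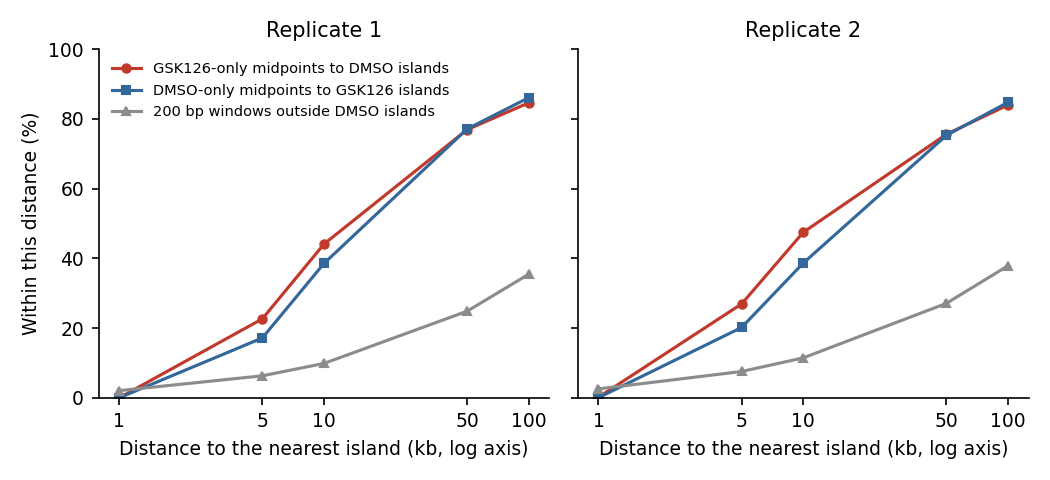
Share of island midpoints (y axis, %) within a given distance (x axis, kb, log scale) of the nearest island of the other treatment, for GSK126-only islands (red) and DMSO-only islands (blue), beside 200 bp windows outside DMSO islands (grey), in replicates 1 and 2. Within 10 kb the values of replicate 1 are 44.1%, 38.6% and 9.87%.

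Relative to protein-coding genes, the midpoints of 876 regions (61.4%; 58.9% to 63.9%) were intergenic, 438 (30.7%) were in introns, 33 (2.31%) in exons and 79 (5.54%) within 2000 bp of a gene start. Of the other islands, 54.0% were intergenic, and of those with a score under 2 times the lowest, 56.8% (55.7% to 58.0%). In replicate 2, 60.5% of the GSK126-only islands were intergenic, compared to 56.4% of the other islands of low score. The genome as a whole was 53.4% intergenic. The regions were thus more often intergenic than low-scoring islands shared with DMSO, by 4 to 5 percentage points in both replicates. The share in gene starts, 5.54%, was above that of the genome (2.54%) and close to that of the other islands (6.11%). When every annotated gene was counted, non-coding genes included, 38.9% of the regions were intergenic and the value for the other islands of low score was 38.6%, so that the intervals overlapped. In replicate 2 these values were 36.7% and 37.9%. The median distance to the nearest start of a protein-coding gene was 62.7 kb for the regions and 56.2 kb for the other islands of low score.

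The sequence of the regions had less G+C than that of other islands. The median was 44.5% (quartiles 41.9% and 47.4%), compared to 46.5% for the other islands of low score and 40.9% for the genome. In replicate 2, GSK126-only islands had a median of 44.1% and other islands of low score 48.0%. Islands found only with DMSO had 46.5% and 46.9% in the 2 replicates. The number of CpGs was 11.1 per kb in the regions and 11.7 per kb in the other islands of low score. The lower G+C was thus present in both replicates, and its part in the other results was not tested.

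H3K4me3, which the rule did not use, was found at few regions. The H3K4me3 libraries differed in depth, with 1.77 tags per window in replicate 1 and 0.302 in replicate 2 of both treatments. An H3K4me3 island overlapped 76 (5.33%) and 48 (3.37%) regions in DMSO replicates 1 and 2, and 74 (5.19%) and 51 (3.58%) with GSK126. The other islands of low score were overlapped at 6.14% and 4.25% with DMSO, and at 6.04% and 4.25% with GSK126. Of the 79 regions with an H3K4me3 island in any library, 45 had one in all 4 libraries, 3 had one only with GSK126 and 5 only with DMSO. An H3K4me3 island in 1 treatment alone was therefore rare at these regions. At gene starts, 34 of 79 regions (43.0%) carried it, close to the 42.3% of the other islands. Of the intergenic regions, 3.08% carried it, compared to 8.01% of the other intergenic islands and 5.07% of those of low score. In replicate 2, 57.6% of the GSK126-only islands at gene starts carried it, compared to 38.0% of the other islands. For intergenic islands of replicate 2 the shares were 5.28% and 6.71%, and 3.90% for the other islands of low score. A lower share at intergenic regions was thus not seen in replicate 2 when islands of low score were compared. Counted in any library, H3K4me3 lay at 5.54% of the regions and 7.07% of the other islands of low score. In replicate 2 these shares were 7.27% and 5.96%, so their order was reversed. Among the 286 regions that were GSK126-only in both replicates, 29 (10.1%) had an H3K4me3 island in at least 1 library. This share was 7.07% for the other islands of low score and 10.7% for all islands of GSK126 replicate 1.

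The share of GSK126 islands that were GSK126-only differed between chromosomes, in nearly the same order in both replicates. Chromosome X had 58 of 387 islands (15.0%) in replicate 1 and 14% in replicate 2. On chromosome 4 the values were 13.3% and 20.8%, and on chromosome 8 they were 11.8% and 11.9%. Chromosomes 19 and 22 were lowest, with 2.96% and 3.43% in replicate 1 and 1.91% and 1.95% in replicate 2. Across 23 chromosomes, the Spearman correlation between the replicates was 0.95 and the Pearson correlation was 0.91. These values are a description, since chromosomes share the libraries and differ in base composition and number of islands. The correlation with the G+C content of the chromosome was -0.57 in replicate 1 and -0.54 in replicate 2 (Spearman), whereas the share of DMSO islands that were DMSO-only had a correlation of 0.017 with it in replicate 1. Chromosome 8 also held 33 of the 286 regions that were GSK126-only in both replicates, and chromosome 10 held 29.

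**Figure D5:**
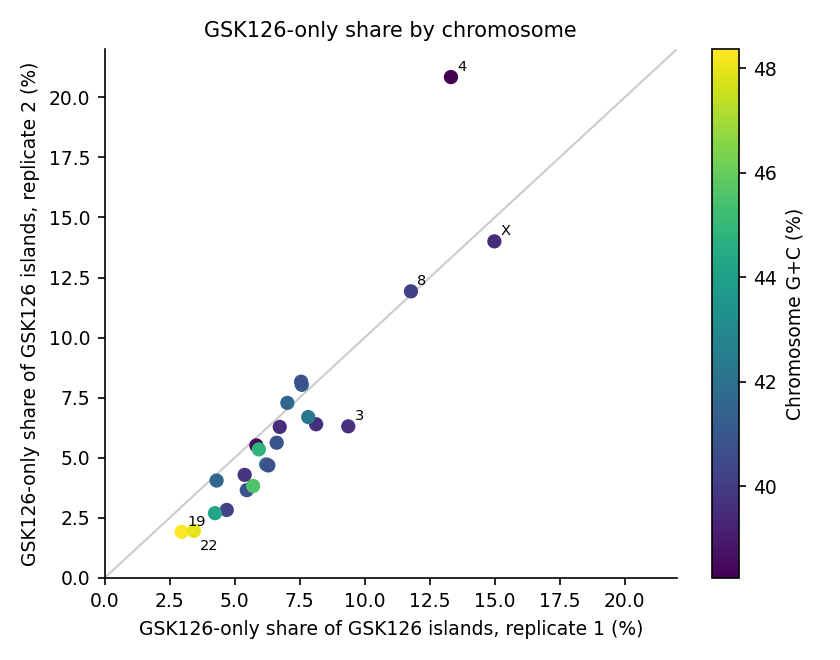
Share of GSK126 islands that overlapped no DMSO island of the same replicate, for chromosomes 1 to 22 and X, in replicate 1 (x axis, %) and replicate 2 (y axis, %). Colour gives the G+C content of the chromosome, the line marks equal shares, and the highest and lowest chromosomes are labelled, from 2.96% on chromosome 19 to 15.0% on chromosome X in replicate 1.

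Ranked by the length of the replicate 2 island, 3 of the 4 longest regions that were GSK126-only in both replicates were on chromosome 8. The first was chr8:11887401-11895200 (7.80 kb, score 99.1), for which the replicate 2 island was 12.6 kb long with a score of 247. It lay 26.7 kb from DEFB130B, a beta-defensin gene, and no DMSO list held an island there. The region chr8:12735201-12739800 scored 70.3, and its counterpart in replicate 2 scored 399, the highest of any GSK126-only island of replicate 2. The all-tags list of DMSO replicate 2 covered 82.6% of it, and a DMSO island of replicate 1 lay 0.4 kb away. The region chr8:12533601-12541400 scored 170 and 269, was free of islands in all 4 DMSO lists, and was covered by 71.8% and 66.7% in the spike-in GSK126 lists of replicates 1 and 2, with a DMSO island of replicate 1 at a distance of 1.2 kb. It was thus among the 7 regions present in every GSK126 list and absent from every DMSO list. These 3 regions lie within 1 Mb of each other, in a part of the genome known for segmental duplications, and tags that did not map uniquely had been removed. The 10 longest also included the 3 regions shown above, chr8:24748601-24756000 near the neurofilament gene NEFM (scores 86.4 and 117), an intron of FRMD4A at chr10:14429601-14435600 (78.9 and 85.8) and an intron of ADARB2 at chr10:1498401-1501800 (62.6 and 103). The FRMD4A region had no island in any DMSO list, and the ADARB2 region was covered by 58.8% and 100% in the all-tags DMSO lists.

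The 5 regions of highest score in replicate 1 did not keep the pattern in replicate 2. The highest, chr10:36185201-36191800, scored 281 and lay 254 kb from FZD8, a Wnt receptor gene. It was covered by 100% in the list of GSK126 replicate 2, but also by 90.9% in the standard list of DMSO replicate 2 and by 100% in the all-tags list of DMSO replicate 1. The next 4 were chr1:240836801-240847600 (score 223), chr6:71022601-71029200 near the collagen gene COL9A1 (score 220), chr4:4106801-4112400 (score 197) and chr20:166201-175200 at the start of the beta-defensin gene DEFB128 (score 178). DMSO replicate 2 covered 35.2%, 63.6%, 60.7% and 93.3% of them. All 5 had an island of GSK126 replicate 2 over at least 73.3% of their length, and all 5 had a spike-in island in both replicates. The strongest regions were therefore found again with GSK126, and a DMSO island was present at each of them in replicate 2.

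Some of the regions lay close together. When regions within 50 kb of each other were joined, 349 (24.5%) had at least 1 neighbour, and the largest run held 7. The same share was not obtained for other islands, so it cannot be read as particular to the regions. The runs described here were chosen after their values were seen. The run of 7 spans 195 kb over DMRT1, a transcription factor gene of testis development, and its neighbours DMRT3 and DMRT2, at chr9:858401-1053600. Its regions scored between 58.3 and 105, and 3 of them were GSK126-only in both replicates. The same span held 11 DMSO islands in replicate 1 and 13 in replicate 2, so that islands of the control lay among the regions.

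A different picture was seen at MSX2, a homeobox gene that acts downstream of BMP signalling. There, 4 regions with scores of 119, 96.9, 126 and 146 lay within 48.2 kb at chr5:174115001-174163200. In the standard list of DMSO replicate 1, the nearest island was between 59.6 kb and 98.6 kb away. In replicate 2, 4 of the 5 GSK126 islands of this span were GSK126-only, and islands of GSK126 replicate 2 covered between 71.7% and 100% of each region. The first 2 regions were GSK126-only in both replicates and had no island in any DMSO list. The third region overlaps the start of MSX2, and DMSO replicate 2 covered 16.3% of it. The fourth was covered by 96.2% in DMSO replicate 2 and by 38.5% in the all-tags list of DMSO replicate 1. H3K4me3 islands were present at the first and the third region in replicate 1 of both treatments and in neither library of replicate 2.

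A region lay within 2000 bp of the start of 119 of 20163 protein-coding genes (0.59%), while an island of DMSO replicate 1 lay at 3989 starts (19.8%). At 27 genes the region was GSK126-only in both replicates, and the first 25 of these by the score of the replicate 2 island are described here. They share 22 regions. An H3K4me3 island was present at the region in all 4 libraries for 12 genes, in 1 to 3 libraries for 4 genes and in none for 9 genes. For 10 genes no DMSO list had an island, and for 8 genes the all-tags list of DMSO replicate 1 had one.

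The 5 highest scores in replicate 2 were at genes without H3K4me3. They were led by FAM90A20P on chromosome 8, where the region scored 69.4 and the replicate 2 island 205 and the all-tags list of DMSO replicate 2 covered all of it, and by GAGE10, a cancer-testis antigen gene on chromosome X, with 122 and 175. The third was PGA5, a pepsinogen gene, with 103 and 146 over the same 1.20 kb in both replicates, and with all of it covered in the all-tags list of DMSO replicate 1. All of these belong to families of near-identical gene copies, in which unique mapping decides where tags are placed, so their values are uncertain. TMEM150C scored 69.4 and 96.2 and CCDC198 59.2 and 78.1. The all-tags list of DMSO replicate 2 covered 90.9% of the TMEM150C region, and no DMSO list had an island at CCDC198. Further members of this group were SPINK1, a trypsin inhibitor gene (92.2 and 45.1), BBS5, which encodes a subunit of the BBSome of cilia and shares its start with ENSG00000251569 (84.3 and 41.5), and SOX5, a transcription factor gene (56.7 and 41.1). The all-tags list of DMSO replicate 1 covered 70% of the BBS5 region, and that of replicate 2 covered 94.4% of the SOX5 region. SPINK1 had no island in any DMSO list.

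Among the genes with H3K4me3 in all 4 libraries, RAB4A, a GTPase of endosomal recycling, had a region at chr1:229406201-229409200 that scored 132, and 77.1 in replicate 2. All of it was covered in the all-tags list of DMSO replicate 2. CCNE2, the gene of cyclin E2, and NDUFAF6, an assembly factor of respiratory complex I, share a region at chr8:95906601-95913800 that scored 132, of which the replicate 2 island covered 25%, with a score of 50.3. It had no island in any DMSO list. STK33, a protein kinase gene, scored 110 and 51.4, and ANKH, which acts in pyrophosphate export, 93.9 and 68.1. The all-tags lists of DMSO replicates 1 and 2 covered 100% and 71.4% of the STK33 region. That of replicate 2 covered 40% of the ANKH region. BAMBI, a pseudoreceptor for TGF-beta (78.8 and 41.8), SHC3, an adaptor gene of neurons (60.7 and 43.2), and PKIA, an inhibitor of protein kinase A (59.0 and 39.6), had no island in any DMSO list. SCML2, a Polycomb group gene, scored 68.5 and 52.2, and the all-tags lists of DMSO replicates 1 and 2 covered 50% and 56.25% of its region. CCSER1 scored 58.3 and 47.2, also with no island in any DMSO list, and ZNF625 with the readthrough gene ZNF625-ZNF20 scored 62.2 and 46.2. Each all-tags DMSO list covered 85.7% of the ZNF625 region. In replicate 1 the regions of RAB4A and of CCNE2 with NDUFAF6, and in replicate 2 that of RAB4A, scored over 2 times the lowest of their lists, which was 56.7 in replicate 1 and 38.2 in replicate 2. The others in this group scored below that.

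The 4 genes with H3K4me3 in some of the libraries were RNF180, a ubiquitin ligase gene, FGF20, CCDC74B and FOXC2, a forkhead transcription factor gene. RNF180 scored 102 and 77.4 and had no island in any DMSO list, whereas spike-in GSK126 islands covered 90% of the region, chr5:63460601-63462600, in both replicates. FGF20 scored 63.9 and 76.3, CCDC74B 67.7 and 69.4, and FOXC2 58.1 and 53.1. The all-tags lists of DMSO replicates 1 and 2 covered 100% and 88.9% of the FGF20 region. That of replicate 2 covered 61.9% of the CCDC74B region and 72.7% of the FOXC2 region. At FOXC2 a DMSO island lay 0.60 kb away. RNF180 and PGA5 were the 2 genes of the 25 with spike-in GSK126 islands in both replicates.

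Gene families were described by the number of members with a region at the start or in the gene body, beside 0.59% and 2.33% for all protein-coding genes. Of 566 C2H2 zinc finger genes, 6 (1.06%) had a region at the start, namely ZNF502, ZNF518B, ZNF625, ZNF625-ZNF20, ZNF80 and ZNF804A, and 4 had a GSK126-only island there in replicate 2. Among 113 homeobox genes, 67 had an island of DMSO replicate 1 at the start, but MSX2 was the only one with a region, and none had a GSK126-only island there in replicate 2. Of 23 cadherins, CDH11 had a region at the start and 3 had one in the body. Potassium channels had a region in the body of 6 of 95 genes in replicate 1 and 5 of 95 in replicate 2, and at the start of none and 1 gene. For solute carriers, 2 of 374 genes, SLC12A7 and SLC2A7, had a region at the start. Among 415 olfactory receptors there was 1 such gene, OR2I1P, and among 27 subunits of the Polycomb repressive complexes there was BMI1. None of 53 clustered protocadherins, 55 keratins, 23 interferon-stimulated genes, 86 cytosolic ribosomal protein genes or 8 CDK inhibitors had a region at the start or in the body in replicate 1, and in replicate 2 there was 1, in the ribosomal protein genes. No family was tested against all genes.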

How the data were processed

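H3K27me3 and H3K4me3 ChIP-seq data of PC9 cells were available as 14 island lists, each from 1 library, of which 12 were analysed. Per the paper's methods, the authors aligned single-end tags to hg19 with BWA, removed duplicates, kept uniquely mapped tags and called islands in each library with SICER. The E-value was 1 without a control library, and windows up to 600 bp apart were joined for H3K27me3, or 200 bp apart for H3K4me3. The window of 200 bp is given by the names of the deposited files. The deposited value is the island score. It sums negative natural log Poisson probabilities over windows, so it rises with depth. SAMtools 0.1.18 is named in the submitters' processing notes. The 2 H3K4me3 lists after spike-in correction were not used here.

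Overlaps of at least 1 bp, distances and gene classes were obtained in Python (3.11.15) by NumPy (2.4.6) from GENCODE genes lifted to GRCh37 and a gene start window of 2000 bp. Tag densities were fitted with SciPy 1.17.1 and intervals are Wilson intervals at 95%. Interval functions were checked on simulated islands. Regions named are the 10 longest that were GSK126-only in both replicates and the 5 of highest score, with 1 entry for each replicate 2 island, of which 1 is not reported here; genes named are 25 with a start within 2000 bp of a region that was GSK126-only in both replicates. The regions and gene lists were chosen with earlier results of these data known. Figures were drawn with Matplotlib 3.10.9.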

Additional observations from a re-analysis of the deposited data

How the results depend on the processing

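Each treatment has 2 libraries, and most of the regions score near the lowest of the list. Without replicate 1, the rule gave 1251 islands, of which 23.3% were GSK126-only, 51.1% had a GSK126 island and 33.3% a DMSO island in the other replicate, with a median distance of 9.60 kb to a DMSO island, 60.5% intergenic midpoints and 7.27% with H3K4me3. Leaving out replicate 2 leaves the rule as it is and gives no value for the other replicate. No replicate block, with each GSK126 library set against the DMSO library of the other number, gave 1274 islands, and 22.8% GSK126-only again, 42.5% with a GSK126 island, 8.20 kb and 8.08% with H3K4me3. The numbers follow the order of deposit, and the pairing rests on the equal tag numbers within a replicate.

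With a score of at least 2 times the lowest, 93 regions were left, and the values were 14% GSK126-only again, 65.6% with a GSK126 island and 78.5% with a DMSO island in replicate 2, 7.40 kb, 53.8% intergenic and 7.53% with H3K4me3. With the DMSO lists that kept all tags in place of the standard ones, the rule picked 678 islands, 559 of them among the 1426, at 7.10 kb and 64.7% intergenic. Between the spike-in lists, a different set of islands, it picked 114, with 8.77% GSK126-only again, 25.4% with a GSK126 island, 5.00 kb, 59.6% intergenic and 13.2% with H3K4me3. A length of at least 2000 bp gave 17% GSK126-only again and 40.9% with a GSK126 island. Removal only at 50% coverage gave 51.4% with a GSK126 island, 3.2 kb and 60.5% intergenic. A DMSO island within 600 bp as the limit gave 11 kb, and autosomes alone 9.60 kb. The intergenic share was 59.8% from any overlap with a gene and 38.9% with all annotated genes. The cause was not tested, except that fewer islands pass a stricter limit. In all, 30 of the 65 values under other settings moved by less than the SD between replicates, or by under 1.5 times for counts. This SD rests on 2 values, 1 of them the value without replicate 1. That setting therefore counts as moved by arithmetic for every result except the count of islands.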
